A study of Mus musculus with 24 samples.

Results

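The genes described here are 9 markers of lymphocytes, measured in mouse liver: the T cell receptor chains Cd3d, Cd3e and Cd3g, the T cell coreceptor chain Cd8a, the cytotoxic granule genes Nkg7 and Gzma, and the B cell genes Ms4a1, Cd79a and Cd79b. They were looked up by name among the 37325 named genes with a probe on the array, and were chosen with earlier results of these data known. The 9 genes had 13 probes. For 7 of the 9, a probe was well above background on every array of at least 1 group, and these 7 (5 of T and NK cells, 2 of B cells) were tested among 22088 genes. Cd8a and Cd79a had no such probe and are given as values without a test.

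Liver RNA of 24 female mice, 1 array each, was labelled with Cy3 and read on 1-colour Agilent arrays. The animals, sv129/C57 mice aged 8 weeks, were either wild type (WT) or LXRalpha beta KO, a strain without the oxysterol receptors LXRα and LXRβ. They received FB1 at 10 mg/kg body weight per day, or water, during 1 month. Fumonisin B1 (FB1) is a mycotoxin that blocks ceramide synthases. The 4 groups of 6 mice were WT FB1, WT control, KO FB1 and KO control. Sex, strain and age were shared by all groups, and neither the part of each receptor gene that was deleted nor any tie between single mice, such as litter or cage, is given in the sources used here.

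A T cell recognises antigen through a receptor whose signal is carried into the cell by the CD3 chains. CD8 marks the T cells that kill infected cells, and these share a granule machinery with natural killer (NK) cells, to which granzyme A and Nkg7 belong. A B cell recognises antigen through a surface immunoglobulin whose signal is carried by CD79A and CD79B, and the surface protein CD20, encoded by Ms4a1, is present from the pre-B stage until a B cell becomes a plasma cell. In the healthy liver these cells are a minority among hepatocytes, and in RNA of whole tissue fewer cells of a type and less RNA per cell cannot be told apart.

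All values are log2 of the processed signal relative to the array's 75th percentile, so that 0 is the brightness of that percentile. Of 59305 spots per array that are not controls, 58.7% to 64.5% were well above background, the 75th percentile was a signal of 490 to 685, and arrays of 1 group correlated at 0.984 to 0.994. Each of 3 slides carried 8 arrays, 2 from every group. The probe used for Nr1h3, which encodes LXRα, read -5.13 to -2.56 in the 12 KO arrays against 4.71 to 5.06 in the 12 WT arrays, and that for Nr1h2, which encodes LXRβ, read 0.31 to 0.80 in KO arrays against 4.02 to 4.34 in WT arrays. The hepatocyte gene Alb had a median between 9.57 and 9.62 in each group. Values after ± are standard errors of a difference between group means unless stated, the number of arrays limits the precision, and adjusted p values are limma's over the 22088 genes.

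B cell genes gave the only member calls for FB1. In KO mice Ms4a1 was 1.96-fold and Cd79b 1.59-fold higher with FB1 than without, where 41.2% of all genes were called. None of the 5 tested T and NK cell genes passed the test there, though all 5 differences were positive. In WT mice no member passed, where 2.89% of all genes were called. Between genotypes, in mice without FB1, Ms4a1 was 2.03-fold and Cd3d 1.45-fold lower in KO than in WT livers. Of all genes 15.2% were called there. With FB1 in both, no member differed past the threshold, where 32.8% of all genes were called. That the FB1 effect differed between KO and WT was not shown for any member, where 9.3% of all genes were called. The other probes of Ms4a1 and Cd3d did not pass in any comparison.

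The probes of the called genes are shown because every value below rests on the match of these 60-base sequences to a transcript, and because several probes of 1 gene did not read alike. The last 30 bases are given, or the 30 around AATAAA, whose letters spell the usual signal for cleavage and polyadenylation near the end of a transcript and stand in capitals. Searched as AATAAA on the probe's own strand, which is that of the messenger RNA, the letters occur in 9.77% of the 56605 probes, and its reverse complement TTTATT in 3.85%.
Ms4a1, probe used: tcctaagcaacagctgtgctttgagattct
Ms4a1, other probe: gaggaggagtgtcaagctgaaaagttttaa
Cd79b: agaacacactggcttcaagaggagtctagg
Cd3d, probe used: ctgtgatcaaccAATAAAgacgtttccttc
Cd3d, other probe: agatacccagtacagccgtcttggagggaa
Cd3e, probe used: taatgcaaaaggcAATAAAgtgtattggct
Cd3e, other probe: atagctaagccctttcctacagctttctgt
In file coordinates (build mm9) the Ms4a1 probes lie on chromosome 19 at 11325409 to 11325468 and 11324334 to 11324393, and the Cd79b probe on chromosome 11 at 106172780 to 106172839, all 3 on the minus strand. On chromosome 9 the Cd3d probes lie at 44794452 to 44794511 and 44794171 to 44794402 on the plus strand (the second range spans 232 bases for a probe of 60), and the Cd3e probes at 44806828 to 44806887 and 44807254 to 44807313 on the minus strand. Exon and UTR annotation of mm9 was not used here.

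Ms4a1 had the largest differences of the 7 tested genes both for FB1 in KO and for KO against WT without FB1. It read -3.63, -2.82 and -2.32 as the lowest, median and highest of the KO FB1 arrays, against -4.54, -3.80 and -3.50 in the KO control arrays. In WT the same order of values was -3.06, -2.26 and -2.0 in FB1 arrays against -3.98, -2.87 and -2.17 in control arrays. All groups shared part of their range with the group they are set against. Of the 6 KO FB1 arrays, 5 lay above every KO control array and 6 above the KO control mean, so that the overlap came from a single array. The difference was 0.97 ± 0.27 (95% interval 0.40 to 1.53, adjusted p = 0.00683).

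Within slides 1, 2 and 3, with 2 arrays of each group, the Ms4a1 difference in KO was 1.18, 0.01 and 1.71. The slide with no difference held KO FB1 replicates 3 and 4, the lowest of their group at -3.44 and -3.63, and KO control replicates 1 and 6, which were among the higher of theirs at -3.57 and -3.50. Leaving out any 1 of the 24 arrays kept the call, with adjusted p from 0.00245 to 0.0218. In WT the FB1 difference was 0.50 ± 0.27 (adjusted p = 0.340), with 5 of 6 FB1 arrays above the control mean. The difference between the FB1 effects, KO minus WT, was 0.47 ± 0.39 (95% interval -0.33 to 1.27, adjusted p = 0.494).

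Without FB1, Ms4a1 differed between KO and WT livers by -1.02 ± 0.27 (adjusted p = 0.0116). All 6 KO control arrays lay below the WT control mean, and 3 lay below every WT control array. This difference had 1 sign in slides 1, 2 and 3, at -1.36, -0.46 and -1.25. With FB1 it was -0.55 ± 0.27 (adjusted p = 0.125), with 5 of 6 KO FB1 arrays below the WT FB1 mean.

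The other Ms4a1 probe, which lies 1075 bases away, did not pass the test in any comparison. It was well above background on 22 of the 24 arrays, and its values ran from -5.54 to -4.25 in KO FB1 arrays against -5.55 to -4.60 in KO control arrays. Its FB1 difference in KO was 0.24 ± 0.19 (adjusted p = 0.330), and its genotype difference without FB1 was -0.24 ± 0.19 (adjusted p = 0.457). Both signs were those of the probe used. Around the group means the 2 probes hardly followed each other (r = 0.09 over the 24 arrays), so the Ms4a1 calls rest on 1 probe.

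Cd79b encodes the β chain of the B cell receptor's signalling pair. Its lowest, median and highest values were -0.51, 0.02 and 0.34 in KO FB1 arrays, against -1.13, -0.58 and -0.43 in KO control arrays. Again 5 of 6 KO FB1 arrays lay above every KO control array, with KO FB1 replicate 4 at -0.51 the exception. The difference was 0.67 ± 0.20 (95% interval 0.26 to 1.07, adjusted p = 0.00922), and 0.71, 0.16 and 1.12 within slides 1, 2 and 3. It was called without any 1 of the 24 arrays, at adjusted p from 0.00411 to 0.0290.

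In WT, Cd79b read -0.85, -0.14 and 0.01 in FB1 arrays, against -1.35, -1.06 and -0.17 in control arrays. The WT groups overlapped, with 3 of 6 FB1 arrays above every control array. The difference of 0.57 ± 0.20 was near that in KO, but its adjusted p was 0.120, in a comparison where 2.89% of all genes were called, against 41.2% in KO. Without WT control replicate 3, the highest of its group at -0.17, it was 0.71 (adjusted p = 0.0469). The FB1 effects in KO and WT differed by 0.10 ± 0.28 (95% interval -0.48 to 0.67, adjusted p = 0.872). Between genotypes Cd79b differed by 0.19 ± 0.20 without FB1 (adjusted p = 0.599) and 0.29 ± 0.20 with it (adjusted p = 0.278). The sign was opposite to that of Ms4a1 in both, and the difference between the 2 genes was not tested.

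Cd79a, whose product pairs with CD79B, was read by 1 probe on chromosome 7 that was well above background on 1 KO FB1 array, 3 KO control arrays, 3 WT FB1 arrays and 3 WT control arrays. No level can be compared between groups. KO control replicate 4 read -1.60, where the other arrays of its group lay at -5.37 or lower.

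**Figure D1:**
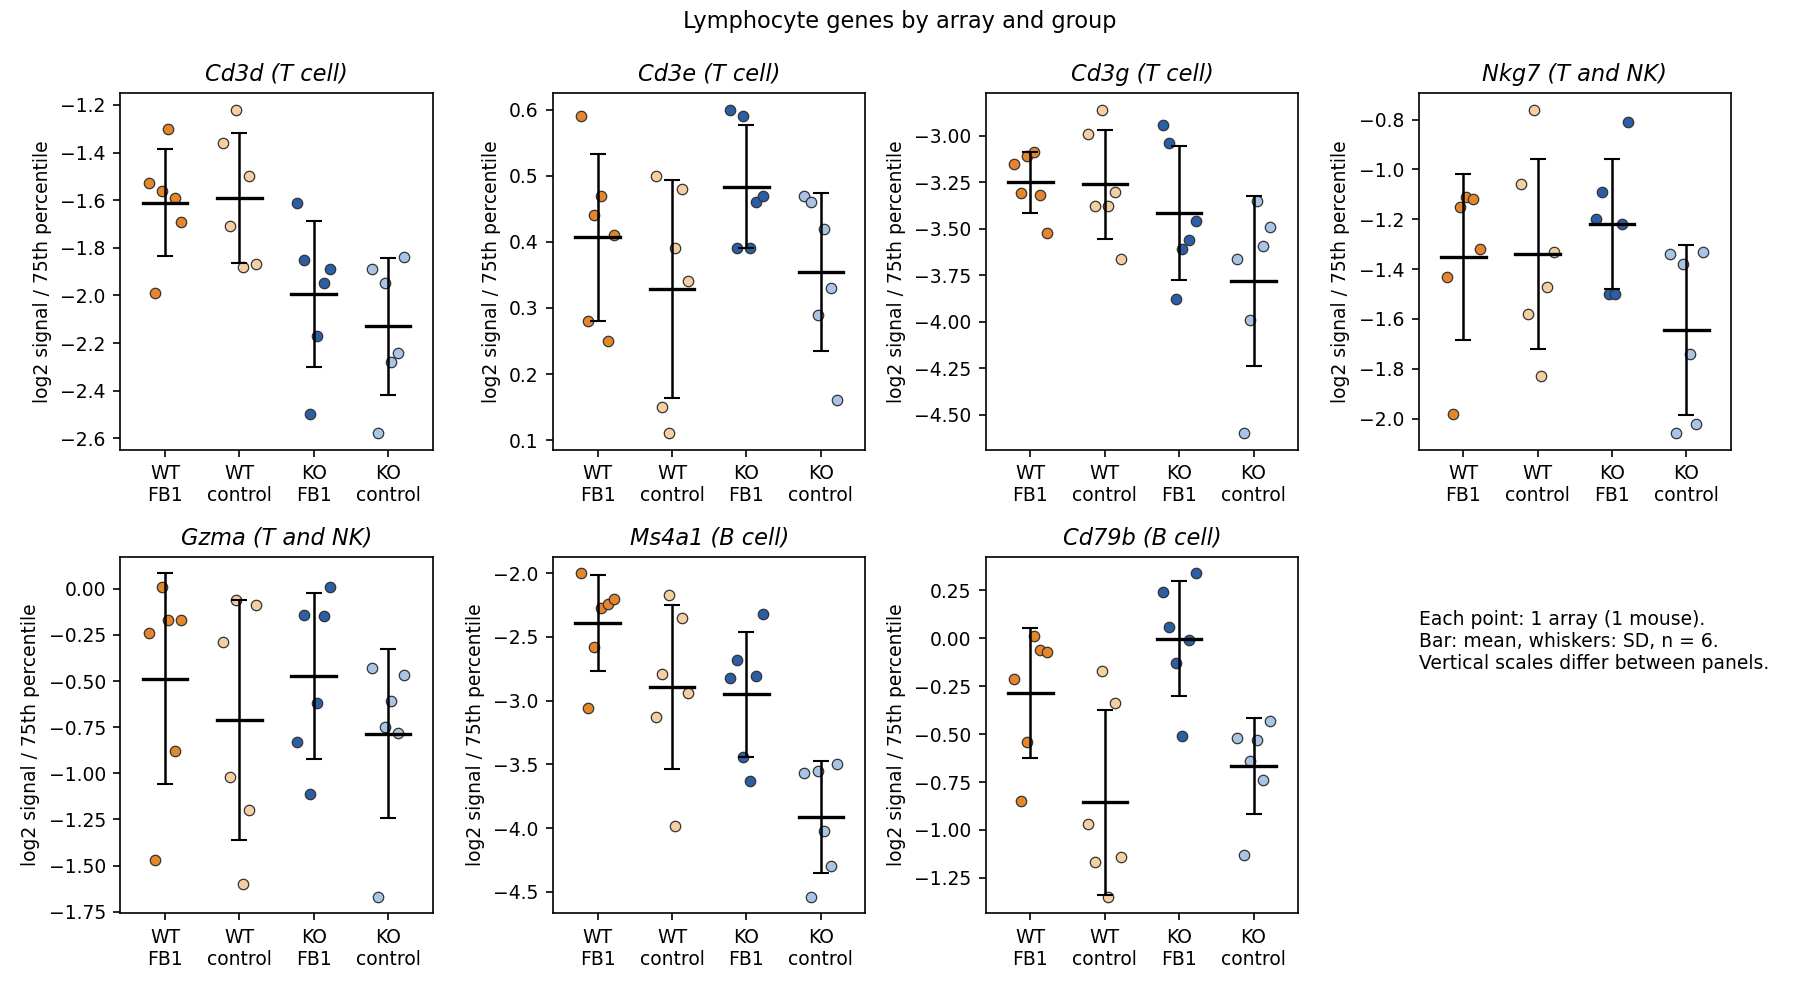
Log2 signal relative to the array's 75th percentile (vertical axes, which differ in scale) of the 7 tested genes in WT FB1, WT control, KO FB1 and KO control arrays. Points are arrays, bars are means and whiskers SD of 6 arrays, and for Ms4a1 and Cd79b 5 of the 6 KO FB1 points lie above all KO control points.

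Among the T cell genes, the CD3 chains assemble with the T cell receptor at the cell surface. Cd3d read -2.50, -1.92 and -1.61 in KO FB1 arrays, against -2.58, -2.09 and -1.84 in KO control arrays. In WT it read -1.99, -1.57 and -1.30 in FB1 arrays, against -1.88, -1.60 and -1.22 in control arrays. FB1 arrays and their controls covered nearly the same range in both genotypes, while most KO arrays were lower than most WT arrays.

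The FB1 difference of Cd3d was 0.13 ± 0.15 in KO (adjusted p = 0.512) and -0.02 ± 0.15 in WT (adjusted p = 0.967). Within slides 1, 2 and 3 the difference in KO was 0.19, -0.47 and 0.68, with both signs. Between genotypes Cd3d fell by 0.54 ± 0.15 in KO mice without FB1 (95% interval -0.86 to -0.22, adjusted p = 0.0179), with 5 of 6 KO control arrays below every WT control array and -0.49, -0.32 and -0.82 within the slides. That call was lost without WT control replicate 3 (-0.47, adjusted p = 0.0507) or without KO control replicate 2 (-0.45, adjusted p = 0.0543), which were the highest and the lowest array of their groups. With FB1 the genotype difference was -0.39 ± 0.15 (adjusted p = 0.0570). It was called without WT FB1 replicate 2 (adjusted p = 0.0277), KO FB1 replicate 1 (adjusted p = 0.0290) or KO control replicate 2 (adjusted p = 0.0451).

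The other Cd3d probe starts 281 bases away and followed the first (r = 0.72 around the group means). Its genotype difference without FB1 was -0.48 ± 0.19 (adjusted p = 0.105) and its FB1 difference in KO 0.37 ± 0.19 (adjusted p = 0.138). The size of the first was close to that of the probe used, and neither passed the test.

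Cd3g read -3.88, -3.51 and -2.94 in KO FB1 arrays, against -4.60, -3.62 and -3.35 in KO control arrays. The WT arrays lay at -3.52, -3.23 and -3.09 with FB1, against -3.66, -3.34 and -2.86 without. No pair of groups was separate. FB1 differences were 0.36 ± 0.19 in KO (adjusted p = 0.121) and 0.01 ± 0.19 in WT (adjusted p = 0.982). Its genotype difference without FB1 was -0.52 ± 0.19 (adjusted p = 0.0630), with 6 of 6 KO control arrays below the WT control mean and -0.45, -0.46 and -0.65 within the slides. It was called without WT control replicate 6 (adjusted p = 0.0397) or KO control replicate 4 (adjusted p = 0.0356). With FB1 it was -0.17 ± 0.19 (adjusted p = 0.526).

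Cd3d and Cd3g are neighbours that are read in opposite directions, with start sites 1355 bases apart on chromosome 9 (RefSeq, GRCm38.p6). Around the group means the probes used correlated at 0.72, while the other Cd3d probe correlated with Cd3g at 0.28. Cd3d was as close to genes on other chromosomes, at 0.80 with Nkg7, 0.73 with Ms4a1 and 0.72 with Cd79b. Because the 2 genes are neighbours, the 250 bases before each start are shown, with every CANNTG in capitals. These are the E-box letters that basic helix-loop-helix factors are known to bind. CANNTG is its own reverse complement, so 1 search covers both strands.
Cd3d, chr9:44981536-44981785, plus strand: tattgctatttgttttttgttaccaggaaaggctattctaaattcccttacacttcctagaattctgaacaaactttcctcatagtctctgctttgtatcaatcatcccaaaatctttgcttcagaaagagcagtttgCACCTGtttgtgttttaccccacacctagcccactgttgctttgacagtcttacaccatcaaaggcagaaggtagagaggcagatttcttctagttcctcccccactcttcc
Cd3g, chr9:44980432-44980681, minus strand: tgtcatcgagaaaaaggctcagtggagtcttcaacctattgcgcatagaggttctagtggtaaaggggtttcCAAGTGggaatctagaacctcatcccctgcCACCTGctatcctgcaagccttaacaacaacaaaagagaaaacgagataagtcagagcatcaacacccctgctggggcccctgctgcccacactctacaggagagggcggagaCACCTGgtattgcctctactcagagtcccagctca
The Cd3d window holds 1 match and the Cd3g window 3, and 66.2% of the 32851 promoter windows of that length hold at least 1. Promoters of 7 of the 9 members were in the table used. The matches describe these letters, and no binding was measured.

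Cd3e, the third CD3 chain, did not follow the other CD3 genes. Its probe read 0.39, 0.46 and 0.60 in KO FB1 arrays against 0.16, 0.37 and 0.47 in KO control arrays, and 0.25, 0.42 and 0.59 in WT FB1 arrays against 0.11, 0.37 and 0.50 in WT control arrays. The 4 groups shared most of their range. The FB1 difference was 0.13 ± 0.08 in KO (adjusted p = 0.200) and 0.07 ± 0.08 in WT (adjusted p = 0.655), and the genotype difference 0.02 ± 0.08 without FB1 (adjusted p = 0.891).

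Around the group means that probe hardly followed Cd3d (r = -0.07), Cd3g (r = -0.10) or Nkg7 (r = -0.16) over the 24 arrays. The other Cd3e probe, 426 bases away, was no closer to them, at -0.39 with Cd3d, -0.28 with Cd3g and -0.39 with Nkg7, and the 2 Cd3e probes correlated at 0.35. Its FB1 differences were negative, -0.24 ± 0.14 in KO (adjusted p = 0.170) and -0.35 ± 0.14 in WT (adjusted p = 0.173), where those of the probe used were positive. Which transcript each probe measures in liver was not tested.

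Cd8a, the α chain of the CD8 coreceptor, was near the limit of detection. Of its 2 probes on chromosome 6, the one at 71328911 to 71328970 was well above background on 5 KO FB1 arrays, 2 KO control arrays, 1 WT FB1 array and 2 WT control arrays. Its values ran from -5.65 to -4.68 in KO FB1 arrays, against -6.41 to -5.26 in KO control arrays. On a single array, WT FB1 replicate 1, the probe at 71323885 to 71323944 passed that mark. Cd8b1, the β chain of the coreceptor and no member, was well above background on every array. It read -2.93 to -2.03 in KO FB1 arrays, against -3.53 to -2.68 in KO control arrays, which overlapped, and it rose by 0.67 ± 0.15 (adjusted p = 0.00128).

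Nkg7 encodes a membrane protein of cytotoxic granules in NK and CD8 T cells. It read -1.50, -1.21 and -0.81 in KO FB1 arrays, against -2.06, -1.56 and -1.33 in KO control arrays, and 4 of 6 KO FB1 arrays lay above every KO control array. The difference of 0.43 ± 0.18 had a 95% interval of 0.04 to 0.81 before adjustment over all genes and did not pass after it (adjusted p = 0.0682). Within slides 1, 2 and 3 it was 0.55, -0.16 and 0.90. It was called without WT FB1 replicate 2 (adjusted p = 0.0465), KO FB1 replicate 3 (adjusted p = 0.0477) or KO control replicate 6 (adjusted p = 0.0492).

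In WT, Nkg7 read -1.98, -1.23 and -1.11 in FB1 arrays, against -1.83, -1.40 and -0.76 in control arrays. The lowest WT FB1 array, replicate 2, stood apart from the others of its group. The FB1 difference in WT was -0.01 ± 0.18 (adjusted p = 0.981), and the FB1 effects in KO and WT differed by 0.44 ± 0.26 (95% interval -0.10 to 0.98, adjusted p = 0.314), the lowest adjusted p of any member in that comparison. Between genotypes Nkg7 differed by -0.31 ± 0.18 without FB1 (adjusted p = 0.304) and 0.13 ± 0.18 with it (adjusted p = 0.623).

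Gzma encodes granzyme A, a protease released by killer cells. It read -1.11, -0.38 and 0.01 in KO FB1 arrays, against -1.67, -0.68 and -0.43 in KO control arrays. In WT it read -1.47, -0.20 and 0.01 in FB1 arrays, against -1.60, -0.66 and -0.06 in control arrays. The ranges overlapped throughout. FB1 differences were 0.31 ± 0.29 in KO (95% interval -0.30 to 0.92, adjusted p = 0.420) and 0.23 ± 0.29 in WT (adjusted p = 0.726). Between genotypes Gzma differed by -0.07 ± 0.29 without FB1 (adjusted p = 0.918) and by 0.01 ± 0.29 with FB1 (adjusted p = 0.982).

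**Figure D2:**
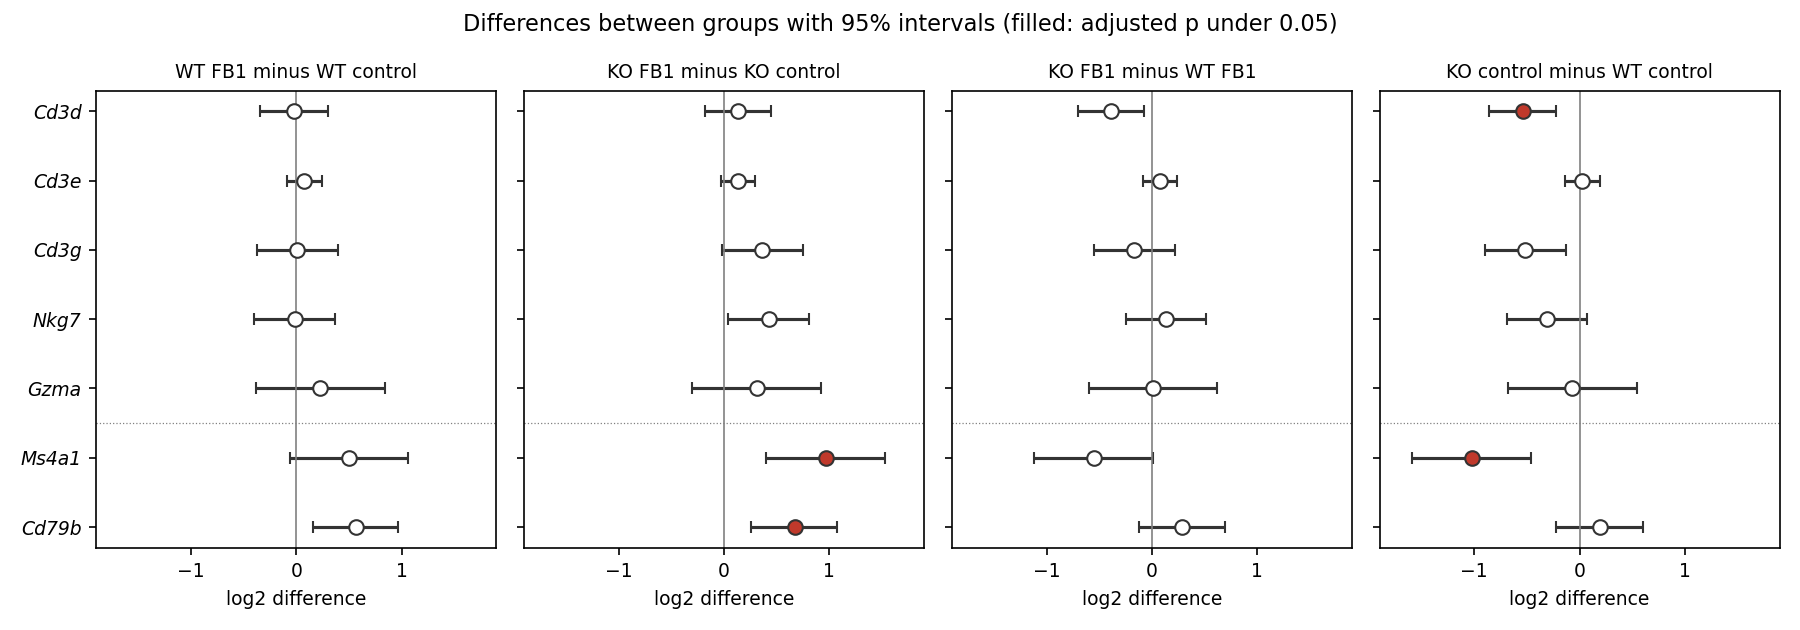
Log2 differences (horizontal axes) of the 7 tested genes in 4 comparisons, with 95% intervals before adjustment and filled points where the adjusted p was under 0.05. Filled points are Ms4a1 and Cd79b for KO FB1 minus KO control and Ms4a1 and Cd3d for KO control minus WT control.

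FB1 in KO called 2 of 7 members, both higher, where 41.2% of the 22088 genes were called and 16.5% were called higher. KO against WT without FB1 called 2 of 7, both lower, where 15.2% of all genes were called and 8.02% were lower. FB1 in WT called 0 of 7, where 2.89% of all genes were called, 2.06% higher and 0.824% lower. KO against WT with FB1 called 0 of 7, where 32.8% were called, 14.5% higher and 18.3% lower. In each of these comparisons 1 member, Cd79b in the first and Cd3d in the second, had an unadjusted p under 0.05. For the difference of the FB1 effects the count was 0 of 7 (0 at an unadjusted p under 0.05), where 9.3% of all genes were called, 4.46% higher and 4.84% lower. In no comparison of groups were the 2 groups wholly separate for any member, as they were for 18.4% of genes for FB1 in KO, 7.93% for KO against WT without FB1, 15.2% with FB1 and 2.33% for FB1 in WT. The members' median difference was 0.36 for FB1 in KO, against -0.075 for all genes, and -0.31 for KO against WT without FB1, against 0.014.

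The T and NK cell genes and the B cell genes were also set side by side as means of their log2 values. The mean of the 2 B cell genes was -1.48 ± 0.39 in KO FB1 arrays and -2.29 ± 0.33 in KO control arrays (SD, n = 6 each), and -1.34 ± 0.35 in WT FB1 arrays and -1.88 ± 0.54 in WT control arrays. That of the 5 T and NK cell genes was -1.32 ± 0.22 and -1.59 ± 0.27 in KO FB1 and KO control arrays, and -1.26 ± 0.24 and -1.31 ± 0.27 in WT FB1 and WT control arrays (SD, n = 6 each). With the probes used, the B cell genes thus had the larger difference with FB1 in both genotypes. The other Ms4a1 probe, not in these means, differed with FB1 by 0.24 in KO and 0.22 in WT. The Cd3e probe, which is in them, hardly followed the other T and NK cell genes. As a description without a test, the B cell mean of FB1 differences exceeded that of the T and NK cell genes by 0.54 in KO and by 0.48 in WT. In WT this excess was 0.05 on slide 1 and 0.88 on slide 3.

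**Figure D3:**
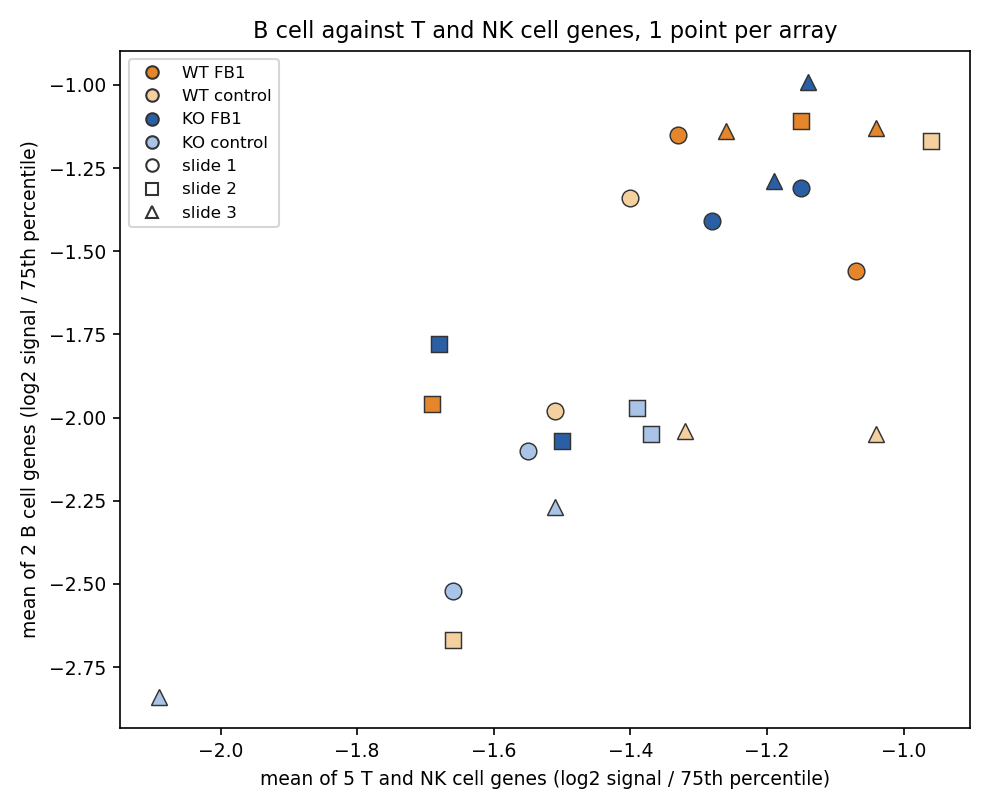
Mean log2 signal of the 2 B cell genes (vertical axis) against that of the 5 T and NK cell genes (horizontal axis), 1 point per array, with groups by colour and slides by marker. KO control arrays span -2.84 to -1.97 on the vertical axis and KO FB1 arrays -2.07 to -0.99.

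Within a group, arrays that were high in 1 of these genes tended to be high in the others, except for Cd3e. Around the group means, over 24 arrays, Ms4a1 and Cd79b correlated at 0.85, Cd3d and Nkg7 at 0.80, Nkg7 and Gzma at 0.78, and Nkg7 and Ms4a1 at 0.78. B cell genes were thus as close to some T and NK cell genes as these were to each other. The points share their array, and with it RNA quality, hybridisation and scaling. KO control replicate 2 was the lowest array of its group for Cd3d, Cd3g, Nkg7, Gzma, Ms4a1 and Cd79b, and WT control replicate 3 the highest of its group for the same 6 genes. On these 2 arrays 62.5% and 63.1% of spots were well above background, inside the range of all arrays. The part of RNA quality was not tested.

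**Figure D4:**
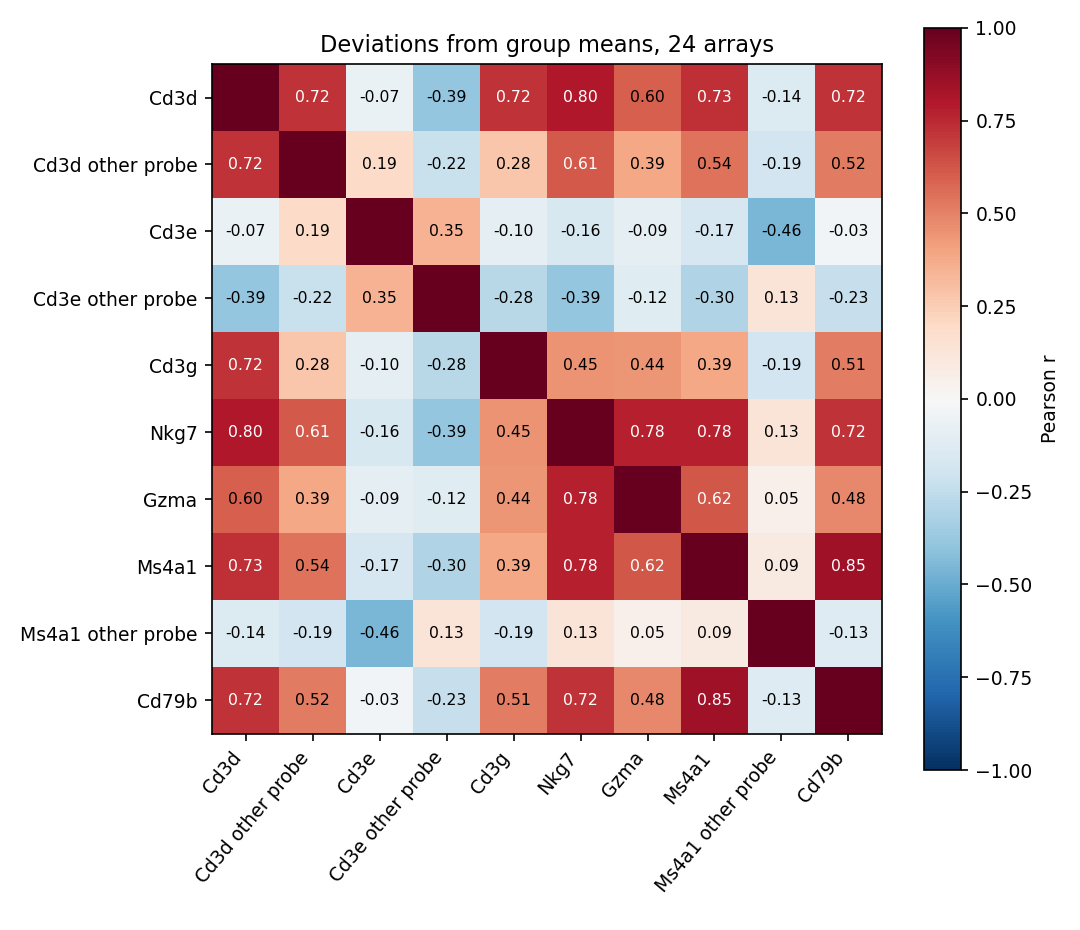
Pearson correlation, by colour and number, of deviations from the group means over 24 arrays between the tested probes of the members. The Cd3e probe used lies between -0.17 and -0.03 with the probes used of the other 6 genes, while Ms4a1 and Cd79b share the value 0.85.

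Outside the member list, the genes most like each member in these deviations were looked up among 22026 genes, as a description. Those of Ms4a1 included a transcript given only by an Ensembl number (0.864) and Tbx21, a transcription factor of T and NK effector cells (0.821). Those of Cd79b included the same unnamed transcript (0.826). For Nkg7 the first was Skap1, a T cell adaptor protein, at 0.88, and for Cd3d a transcript known only by an Ensembl number at 0.884, followed by Ms4a4b, a surface protein of T cells, at 0.872. For Gzma it was Pilrb1, an activating receptor, at 0.917. The first for Cd3e was Gm19966 at 0.774, followed by Pigt at 0.76, which builds membrane anchors, and Anp32a at 0.747, and none of these is a lymphocyte marker in the lists used here. For Cd3g it was Arhgap15 at 0.766.

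Other genes of the same cells were taken from lists chosen with earlier results of these data known. In the B cell list, FB1 in KO called 10 of 22 tested genes higher and 1 lower, with a median of 0.56. Of all genes 16.5% were called higher and 24.6% lower there. Ly6d, a marker of early B lineage cells that some epithelia also express, rose by 5.75 ± 0.61 (adjusted p = 3.44e-07), and Cd72, a B cell surface lectin, by 1.88 ± 0.21 (adjusted p = 6.4e-07). Blnk, a B cell adaptor also made by macrophages, rose by 1.78 ± 0.24 (adjusted p = 6.45e-06). Ly6d and Cd72 were the 2 genes of this list whose FB1 effect differed between genotypes, by 4.19 ± 0.86 (adjusted p = 0.00452) and 1.56 ± 0.30 (adjusted p = 0.00267). These were 2 of 22 tested genes, in a comparison where 9.3% of all genes were called, 4.46% higher and 4.84% lower.

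Plasma cells no longer express Ms4a1. In their list 5 of 7 tested genes were higher and 1 lower for FB1 in KO, among them Jchain, which joins the units of secreted IgA and IgM, at 1.26 ± 0.22 (adjusted p = 0.000113). It read 0.89, 1.19 and 1.91 in KO FB1 arrays, against -0.46, -0.10 and 0.49 in KO control arrays, and these groups did not overlap. Prdm1, the factor that drives plasma cell formation, rose by 0.73 ± 0.18 (adjusted p = 0.00236). Derl3, a secretory pathway gene, rose by 1.97 ± 0.47 (adjusted p = 0.00194).

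The T and NK cell lists held calls for FB1 in KO in both directions. T cell receptor signalling genes were higher in 4 and lower in 1 of 13 cases (median 0.14), T cell surface and transcription factor genes higher in 5 and lower in 0 of 17 (median 0.28), and NK and cytotoxic genes higher in 4 and lower in 1 of 12 (median 0.30). Of all genes, 41.2% were called in this comparison, 16.5% higher and 24.6% lower. Il7r, the interleukin-7 receptor chain, rose by 1.43 ± 0.14 (adjusted p = 9.36e-08), Tcf7, a transcription factor of naive and memory T cells, by 1.06 ± 0.19 (adjusted p = 0.000123), and Vav1, an exchange factor of blood cells, by 0.98 ± 0.18 (adjusted p = 0.000156). Zap70, the kinase that binds phosphorylated CD3 chains, fell by 0.63 ± 0.13 (adjusted p = 0.000492). Klrd1, a receptor chain of NK and CD8 T cells, rose by 0.66 ± 0.16 (adjusted p = 0.00176). Gzmb, another granzyme and the 1 gene of its list called lower, fell by 0.75 ± 0.26 (adjusted p = 0.0224).

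Between genotypes without FB1, 9 of 22 B cell genes were lower and 1 was higher (median -0.53), where 8.02% of all genes were called lower and 7.21% higher. Cd38, an ectoenzyme of B cells and macrophages, differed by -1.06 ± 0.17 (adjusted p = 6.79e-05), and Cd72 by -1.06 ± 0.21 (adjusted p = 0.000897). Cd22, an inhibitory B cell receptor, was the gene called higher (0.57 ± 0.11, adjusted p = 0.00103), while its other probe was lower (-0.91 ± 0.26, adjusted p = 0.0202) and, for FB1 in KO, higher (1.08 ± 0.26, adjusted p = 0.00223). T cell receptor signalling genes were lower in 4 and higher in 1 of 13 cases, with Prkcq, a kinase of T cells, at -0.69 ± 0.17 (adjusted p = 0.0052), Rasgrp1 at -0.54 ± 0.13 (adjusted p = 0.00437) and Zap70 higher at 1.1 ± 0.13 (adjusted p = 1.02e-06). Of the 17 tested T cell surface and transcription factor genes 2 were higher and 2 lower (median -0.15). Il7r was higher by 0.70 ± 0.14 (adjusted p = 0.000678) and Cd7, a surface protein of T and NK cells, by 0.62 ± 0.12 (adjusted p = 0.000955). Icos, a T cell costimulator, was lower and read -5.13 to -4.07 in KO control arrays against -3.45 to -1.93 in WT control arrays, a difference of -1.94 ± 0.23 (adjusted p = 1.51e-06). For FB1 in WT the B cell, T cell and NK cell lists held 0 calls, in a comparison where 2.89% of all genes were called. The smallest p in the B cell list there was that of Blnk (0.87 ± 0.24, adjusted p = 0.0518).

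Markers of other leukocytes moved in the same comparison. Among pan-leukocyte genes, FB1 in KO called 9 of 12 higher and 2 lower (median 0.76), with Laptm5, a lysosomal protein of blood cells, at 1.24 ± 0.17 (adjusted p = 8.28e-06). Their summed signal, in units of the 75th percentile, was 35.0 to 44.1 in KO FB1 arrays, against 23.6 to 29.3 in KO control arrays. Of Ptprc, which encodes the leukocyte antigen CD45, the probe used fell by 0.32 ± 0.08 while the other 4 tested probes rose by 0.56 to 0.97. Recruited monocyte and macrophage genes were higher in 10 of 13 cases and lower in 0 (median 1.32), with a summed signal of 124 to 155 in KO FB1 arrays, against 51.7 to 75.3 in KO control arrays. These lists held a larger share of higher calls than the 16.5% of all genes, and their part in the values of Ms4a1 and Cd79b was not tested. Of resident macrophage genes 10 of 12 were lower in KO than in WT without FB1 and 0 were higher. Hepatocyte genes had 0 higher and 2 lower of 10 for FB1 in KO. Cd4, which encodes the coreceptor of helper T cells, had 2 tested probes that did not pass in any comparison, and what these probes measure in liver was not tested. Foxp3 of regulatory T cells and Ncr1 of NK cells were well above background on 9 and 16 arrays and were not tested, and the immunoglobulin genes Ighm, Igha, Igkc and Iglc1 had 0 probes under those symbols.

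**Figure D5:**
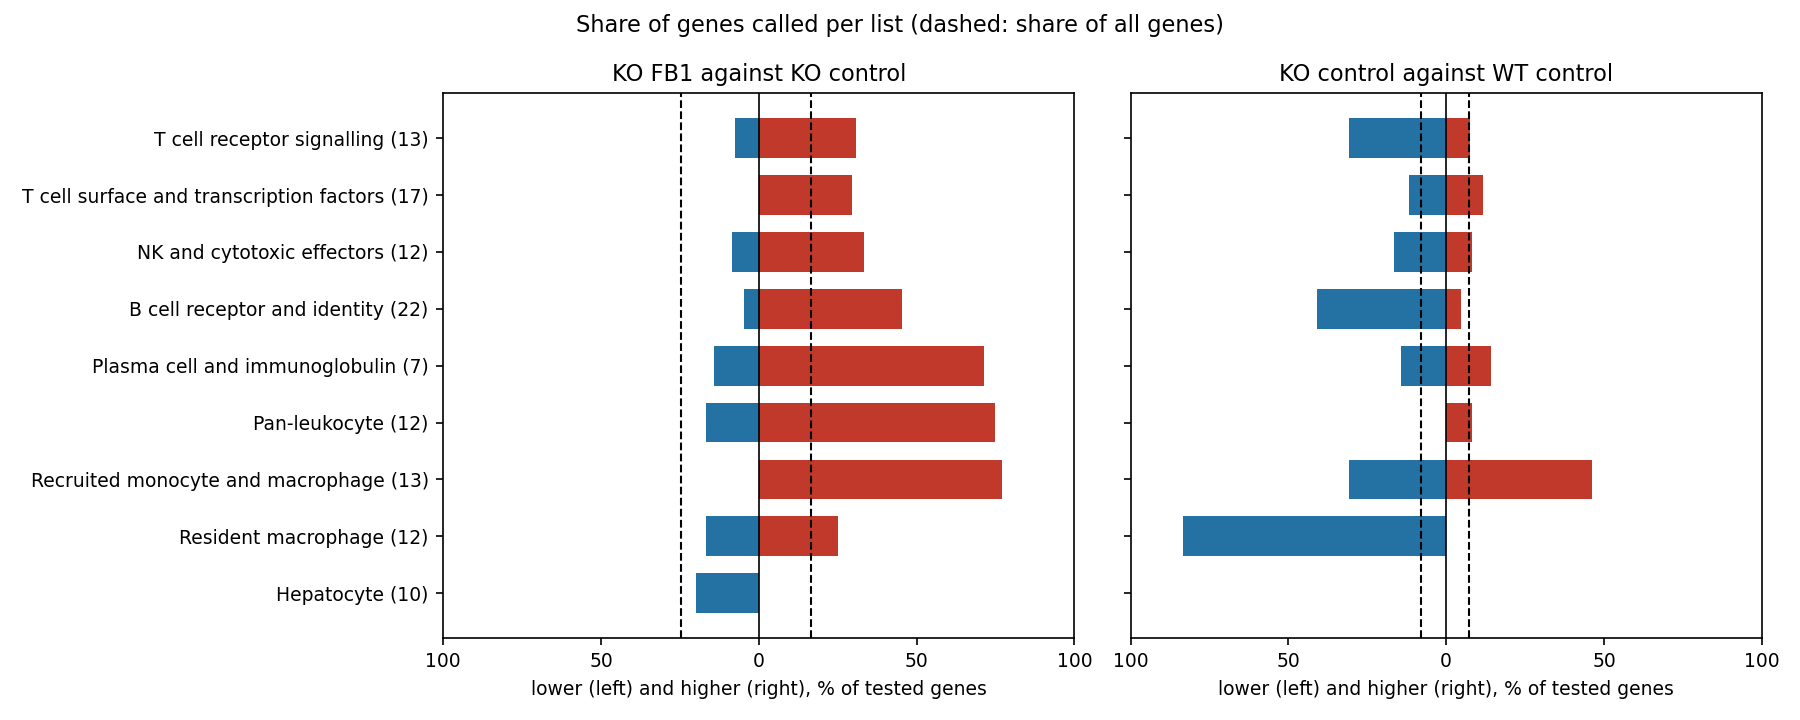
Percent of the tested genes of each list (number in brackets) called higher (red, right) and lower (blue, left), for KO FB1 against KO control and for KO control against WT control. Dashed lines are the shares of all genes, 16.5% higher and 24.6% lower on the left and 7.21% higher and 8.02% lower on the right.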

How the data were processed

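Liver RNA of 24 mice was hybridised to 1-colour arrays, 1 per mouse, and the 4 groups of 6 were taken from the sample labels. Per the file headers, the deposited scanner files give each spot's intensity, which Agilent Feature Extraction 10.10.1.1 had background-subtracted and detrended within the array. The submitters' processing notes name that tool and limma. The authors also deposited log2 values of 33417 probes, and how these were filtered and corrected is not stated in what was used here.

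Spots marked as outliers (64 to 121 per array) were left out, and 0 were saturated. Values were scaled to the 75th percentile of each array. To be tested, a probe had to stand well above background throughout at least 1 group and keep at least 4 values per group. This left 33417 probes, of which 32012 are in the authors' table, and 22088 genes, each read by its brightest such probe. The software was limma 3.58.1 in R 4.3.3 with version 1.17.8 of data.table. One linear model with 4 group means over the 24 arrays, moderated by eBayes, gave 5 comparisons, called at a Benjamini-Hochberg adjusted p under 0.05 over all genes (for a gene's other probes, over all tested probes). The code was tested on simulated data. Mice are taken as independent as far as labels tell. Figures used Python 3.11.15 and matplotlib 3.10.9.

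The members and companion lists were chosen with earlier results of these data known. Named genes were the members, at most 3 called genes per list and comparison by smallest p (or the 1 of smallest p where none was called), a few defining genes, and the 3 genes most correlated with each member. Gzmb was named after its values were seen, and 1 gene that the rule names is not reported here. Alternatives covered the scaling (quantile), background (normexp, offset 50), authors' values, dim-probe filter, outlier spots, probe averaging, blocks for slide or replicate, single slides, groups in the fit, variance trend, weights for arrays, a 1.5-fold minimum, and leaving out every array once. Reading a gene by its other probe was added after seeing the data. Probe coordinates are those of the files (mm9) and promoters come from RefSeq (GRCm38.p6).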

Additional observations from a re-analysis of the deposited data

Results flagged for a closer look

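Of 52 sets of 6 arrays (each member probe in each group), 6 held an array far from the other 5 by Dixon's criterion, which chance alone meets in about 1 in 20 sets. For tested genes these were Nkg7 in WT FB1 replicate 2, at -1.98 with the nearest array at -1.43, and Gzma in KO control replicate 2, at -1.67 with the nearest at -0.78. Both arrays were also low in other lymphocyte genes: WT FB1 replicate 2 was the lowest of its group for Cd3d, Ms4a1 and Cd79b, and KO control replicate 2 the lowest of its group for Cd3d, Cd3g, Ms4a1 and Cd79b.

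The other 4 concern Cd8a and Cd79a, which were not tested. The Cd8a probe at 71323885 to 71323944 read -2.38 in WT FB1 replicate 1 with the nearest array at -6.83, and on the same array the other Cd8a probe read -5.48, not well above background. That other Cd8a probe read -4.68 in KO FB1 replicate 6 with the nearest at -5.33. Cd79a read -5.41 in KO FB1 replicate 2 with the nearest at -6.09, and -1.60 in KO control replicate 4 with the nearest at -5.37. In each of the 4 cases the array set apart was well above background. KO control replicate 4 was not the highest of its group for Ms4a1 (-4.02) or Cd79b (-0.53).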

How the results depend on the processing

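The count of members called for FB1 in KO (2) was 1 with the authors' values (the Cd79b probe was not analysed there), 0 on slide 1 or slide 2 alone, and 2 to 3 with each array left out. Slide 3 alone kept the calls of Ms4a1 (1.71) and Cd79b (1.12). For KO against WT without FB1 (2) the count was 1 at 1.5-fold or more, 0 on slide 1 or slide 2 alone, 1 on slide 3 alone, and 1 to 3 with each array left out. For KO against WT with FB1 (0) it was 1, namely Cd3d, with quantile normalisation, the authors' values or array weights, and 0 to 1 with each array left out. For FB1 in WT (0) it was 0 to 1 with each array left out, and for the difference of the FB1 effects 0. A slide alone has 2 arrays per group. The B minus T and NK excess of FB1 differences was 0.05 and 0.88 in WT on slides 1 and 3, and 0.39 to 0.60 in WT and 0.48 to 0.63 in KO with each array left out.

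Single slides, fits with only the groups of a comparison and the 1.5-fold threshold are left out of what follows, up to the counts of signs. Ms4a1 and Cd3d kept their calls for KO against WT without FB1 in the 11 other planned settings that give a value per gene (-1.06 to -0.52 and -0.58 to -0.40). Ms4a1 kept its call for FB1 in KO in the same 11 (0.43 to 0.98) and Cd79b in the 10 that hold it (0.58 to 0.67). Nkg7 for FB1 in KO was called with array weights (adjusted p = 0.0415), and Cd3g for KO against WT without FB1 was called in 3 settings. With the other probe, chosen after seeing the data, the calls of Ms4a1 and Cd3d were lost, as given with those genes. The counts of signs take in single slides, fits with only the groups of a comparison and the other probes. No called value changed sign. The opposite sign was seen for 41 of 528 values under other settings and 33 of 840 with an array left out, all of them values that were not called. Without a filter on dim probes, Cd8a gave 0.64 ± 0.24 (adjusted p = 0.0582) and Cd79a -0.86 ± 0.55 (adjusted p = 0.326) for FB1 in KO. The cause of these changes was not tested.

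With replicate number as a block, members called were 0, 2, 2, 0 and 0 in the 5 comparisons, as without the block. The labels do not say whether equal numbers pair mice. Deviations of same-numbered arrays correlated at -0.20 to 0.24 over 36 pairs, 5 of them above 0.1, which cannot exclude a pairing. Over all genes, FB1 in WT called 638 genes, 381 with the WT arrays alone and 386 without WT FB1 replicate 1. The difference of the FB1 effects called 2055 genes, and 1258 without a filter on dim probes. On slides 1, 2 and 3 alone FB1 in WT called 7, 33 and 0 genes, FB1 in KO 1971, 305 and 4905 of 9097, KO against WT without FB1 724, 424 and 885 of 3363, KO against WT with FB1 1615, 705 and 4162 of 7246, and the difference of the FB1 effects 6, 3 and 1083.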

Other observations

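Genes that attract or sustain lymphocytes, from a list of 16 tested genes not used above, moved in both directions. For FB1 in KO 5 were higher and 2 lower, with a median of 0.40, where 16.5% of all genes were called higher and 24.6% lower. Cxcl16, the ligand of the chemokine receptor CXCR6, rose by 0.56 ± 0.11 (adjusted p = 0.000371), and Icam1, an adhesion molecule, by 0.71 ± 0.18 (adjusted p = 0.00315). Cxcl13, the chemokine that draws B cells into follicles, fell by 1.44 ± 0.37 (adjusted p = 0.00333), in the comparison where Ms4a1 and Cd79b rose. It read -5.61 to -4.10 in KO FB1 arrays, against -4.12 to -2.18 in KO control arrays, which overlapped slightly. Between genotypes with FB1, Cxcl13 was lower in KO by -2.27 ± 0.37 (adjusted p = 4.65e-05).

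Plasmacytoid dendritic cell genes were higher in 5 and lower in 0 of 7 cases for FB1 in KO (median 0.92), and conventional dendritic cell genes higher in 4 and lower in 1 of 9 (median 0.55). For Siglech, of the plasmacytoid list, the probe used did not pass (0.01 ± 0.08, adjusted p = 0.937), while its dimmer tested probes rose by 0.38 and 1.52. Neutrophil genes were higher in 2 and lower in 1 of 11, and erythroid genes higher in 0 and lower in 2 of 7. In the same comparison 16.5% of all genes were called higher and 24.6% lower.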
